A study of Mus musculus with 9 samples.

Results

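Bone morphogenetic protein (BMP) ligands and the proteins that hold them in check were followed through formation of the mouse cornea, as 10 genes out of the 19369 that were listed in at least 1 sample. The genes were taken by symbol, matched to Entrez Gene identifiers, and all of them were found. They comprise 5 ligands (*Bmp2*, *Bmp3*, *Bmp4*, *Bmp5* and *Bmp7*), the secreted antagonists *Nog*, *Grem1* and *Chrd*, and the cell-autonomous inhibitors *Bambi* and *Smad6*. RNA-Seq was performed on pNC, the neural crest mesenchyme around the eye, at stage E10.5 (E, embryonic day) and on corneas at E14.5 and E16.5, with 3 samples at each stage. All embryos were wild-type mice of the C57BL/6 strain, with no treatment or engineered allele. At E10.5 the eye tissue was loosened with dispase and the ectoderm, lens vesicle and optic cup were taken away, whereas corneas were cut free of the neighboring tissue. Every sample was a pool of many eyes, so a value averages over embryos and over epithelium, mesenchyme and any remaining cells. The labels call the samples of a stage biological replicates, and the p-values below set a difference between stages against the spread between these pools.

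BMPs are secreted dimers of the TGFβ superfamily. They bind a pair of type I and type II receptor kinases, which phosphorylate Smad1, Smad5 and Smad9. These join Smad4 and act in the nucleus on genes such as those of the Id and Msx families. Secreted antagonists bind the ligand before it reaches the receptor, Bambi is a pseudoreceptor that lacks the kinase, and Smad6 blocks the receptor Smads inside the cell. In the eye, BMP signals are known for lens induction, for patterning of the optic cup and for development of the anterior segment, and *Bmp4* and *Bmp7* are the ligands most often tied to these roles.

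The labels were checked against marker genes. The neural crest gene *Alx1* stood between 43.4 and 62.5 FPKM (fragments per kilobase of transcript scaled to the mapped fragments of the sample) in pNC and at 1.46 FPKM or less in the corneas, and the keratocyte gene *Kera* went from 1.11 FPKM or less in pNC to between 1170 and 1244 FPKM at E16.5. Over 7 epithelial markers the summed level was 24.6 to 38.7 FPKM in pNC, with *Epcam* at 9.46 to 11.8 FPKM, 570 to 1990 at E14.5 and 5080 to 7390 at E16.5. Summed levels of 4 vascular markers went the other way, from 68.5 to 122 FPKM in pNC through 41.2 to 76.6 at E14.5 down to 22.5 to 34.3 by E16.5. The exception among them was *Kdr*, with means of 26.8, 30.3 and 26.2 FPKM by stage and no call in any comparison. The 4 globin genes summed to 5030 to 7860 FPKM in pNC and, in the order of the corneal stages, to 1820 to 2330 and 644 to 1350 FPKM. They did not move alike. *Hbb-y*, *Hba-x* and *Hbb-bh1* fell from means of 2450, 1610 and 1070 FPKM in pNC to 2.87, 1.82 and 0.39 at E16.5. *Hba-a1* had means of 1480, 1640 and 1010 FPKM by stage and was not called in any comparison, so the sum does not measure blood content. All 5 lens markers together made 1.31 to 5.84 FPKM in any sample. E14.5 replicate 1 stood apart from the other E14.5 samples, with *Krt12* at 102 FPKM against 0.62 and 2.06, and *Kera* at 803 FPKM against 83.1 and 151. E10.5 replicate 3 had less of the optic cup gene *Rax*, 0.61 FPKM against 5.24 and 6.63. Totals of expected counts lay between 8745161 and 9069023.

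In the mouse genome (GRCm38.p6, RefSeq), *Bmp4* lies on chromosome 14 from 46383525 to 46390669, *Bmp5* on chromosome 9 from 75775365 to 75900316, *Grem1* on chromosome 2 from 113748675 to 113758648 and *Chrd* on chromosome 16 from 20731425 to 20742384. *Bmp2* and *Bmp7* share chromosome 2 with *Grem1*, at 133552159 to 133562896 and 172868012 to 172940321. *Bmp3* occupies 98854415 to 98884053 on chromosome 5 and *Nog* 89300638 to 89302559 on chromosome 11. *Smad6* is at 63953076 to 64022085 on chromosome 9. By span, *Bmp4*, *Bmp5* and *Chrd* overlap other annotated genes in GENCODE M21, among them antisense genes at *Bmp4* and *Bmp5* and *Thpo* on the strand opposite to *Chrd*. Whether reads were counted by strand is not given in the sources used here, so reads from these overlaps cannot be told apart.

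RefSeq promoter sequence was matched for 5 members. The 250 bases before the transcript start of the promoter table are shown for *Bmp4*, *Bmp5* and *Grem1*, which were downregulated in the cornea, and for *Chrd*, which was upregulated, as described below for each gene. They run 5′ to 3′ on the strand of the gene, at chr14:46390670-46390919 (minus strand) for *Bmp4*, chr9:75775115-75775364 (plus strand) for *Bmp5*, chr2:113758649-113758898 (minus strand) for *Grem1* and chr16:20732877-20733126 (plus strand) for *Chrd*. For *Chrd* that start is the GENCODE start at 20733127, inside the RefSeq span given above. Capitals mark each GGCGCC, a GC-rich element bound by BMP-responsive Smads, and each GTCT or its reverse complement AGAC, the short core bound by Smads. The motifs do not overlap each other.
Bmp4: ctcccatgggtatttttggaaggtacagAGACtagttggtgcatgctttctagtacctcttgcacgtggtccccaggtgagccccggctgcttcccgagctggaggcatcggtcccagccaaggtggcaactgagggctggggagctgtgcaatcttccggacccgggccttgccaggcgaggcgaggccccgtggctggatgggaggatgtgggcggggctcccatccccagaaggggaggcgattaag
Bmp5: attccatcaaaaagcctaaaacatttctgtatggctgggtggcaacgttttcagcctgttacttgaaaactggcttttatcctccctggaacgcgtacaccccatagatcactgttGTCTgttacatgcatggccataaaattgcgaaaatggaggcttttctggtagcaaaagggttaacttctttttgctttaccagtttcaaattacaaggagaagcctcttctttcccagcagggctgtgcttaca
Grem1: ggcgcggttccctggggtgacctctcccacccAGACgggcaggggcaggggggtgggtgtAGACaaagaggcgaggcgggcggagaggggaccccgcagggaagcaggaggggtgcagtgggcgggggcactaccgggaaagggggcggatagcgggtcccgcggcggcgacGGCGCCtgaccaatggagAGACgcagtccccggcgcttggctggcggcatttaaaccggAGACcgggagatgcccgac
Chrd: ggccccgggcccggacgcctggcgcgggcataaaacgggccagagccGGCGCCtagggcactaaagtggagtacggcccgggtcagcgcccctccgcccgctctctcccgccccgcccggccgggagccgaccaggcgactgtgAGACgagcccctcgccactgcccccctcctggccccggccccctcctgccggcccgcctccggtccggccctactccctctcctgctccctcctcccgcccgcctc
*Grem1* and *Chrd* each held 1 copy of GGCGCC in this window and *Bmp4* and *Bmp5* none. Among 27025 mouse promoter windows of the same length, 9.54% held this element on either strand. The shorter core, GTCT or AGAC, occurred 4 times at *Grem1* and 1 time at each of the others, and 83.0% of all windows held at least 1. The windows of *Chrd* (78.0% G or C, 28 CpG) and *Grem1* (72.0%, 24 CpG) were rich in CpG, *Bmp4* (63.2%, 11 CpG) was intermediate, and *Bmp5* (42.8%, 4 CpG) lay under the median of all windows (52.0%, 6 CpG). These are matches of letters and were not tested as binding sites.

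With a mean FPKM of at least 5 taken as expressed, *Bmp7*, *Bmp4*, *Smad6*, *Bambi* and *Bmp5* were expressed in pNC, and *Bmp7*, *Bmp3* and *Smad6* in the cornea at both stages. In pNC the order of mean levels was *Bmp7* (19.7 FPKM), *Bmp4* (16.8), *Smad6* (9.61 to 11 FPKM over its samples), *Bambi* (mean 10.4) and *Bmp5* (5.27), and all other members lay between 1.27 and 2.11 FPKM. *Smad6* and *Bambi* did not differ beyond the spread of their samples there, nor did *Chrd*, *Grem1*, *Nog*, *Bmp3* and *Bmp2* each from the next. At E14.5 the order began with *Bmp7* (38.5 FPKM), *Bmp3* (15.1) and *Smad6* (8.97), and *Chrd*, *Bambi*, *Bmp4* and *Nog* followed from 4.35 to 2.21 FPKM. The samples of *Bmp3* and *Smad6* overlapped at E14.5, since the lowest *Bmp3* level, 9.1 FPKM in replicate 2, was under the highest *Smad6* level of 9.69 FPKM, and so did those of *Chrd* and *Bambi*. At E16.5 *Bmp3* (42.1 FPKM) stood above *Bmp7* (22.6) and *Smad6* (7.47) with no overlap of samples, and *Bmp5* and *Grem1* came last at 0.133 and 0.117 FPKM.

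**Figure D1:**
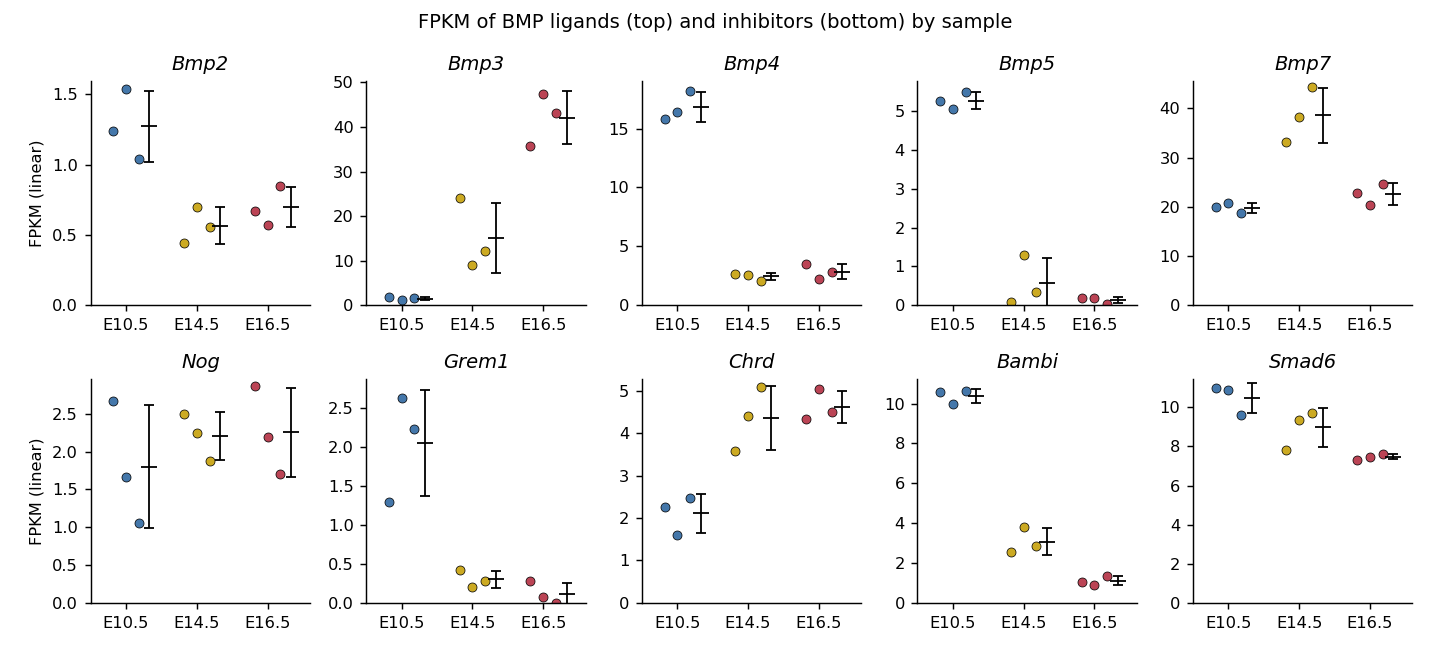
FPKM of each of the 10 genes (vertical axis, linear, from 0) at each stage (horizontal axis), with 1 point per sample and a bar for the mean ± SD (n = 3). *Bmp4*, *Bmp5*, *Grem1* and *Bambi* were highest in pNC, *Bmp3* was highest at E16.5 (35.7 to 47.3 FPKM), and *Bmp7* was highest at E14.5 (33.2 to 44.3 FPKM).

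Among the ligands, *Bmp4*, which is required for lens induction and early mesoderm, was an abundant ligand of pNC and was downregulated in the cornea. Its level in pNC was 15.8, 16.4 and 18.2 FPKM in replicates 1 to 3. The E14.5 corneas had 2.67, 2.6 and 2.06 FPKM, and the E16.5 corneas 3.51, 2.22 and 2.84 FPKM. Every pNC sample was above every cornea, while both corneal stages overlapped. By edgeR's quasi-likelihood test the log2 fold change was -2.78 at E14.5 (SE 0.17, Benjamini-Hochberg adjusted p = 6.6e-07) and -2.41 at E16.5 (SE 0.17, adjusted p = 6.5e-07), both against the same pNC samples. From E14.5 to E16.5 it was 0.37 (SE 0.19, adjusted p = 0.16).

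*Bmp5*, a ligand of the *Bmp7* subgroup known for its role in the skeleton, was downregulated further. It stood at 5.27, 5.05 and 5.5 FPKM in pNC, which rests on expected counts of 120, 116 and 123. At E14.5 the levels were 0.09, 1.3 and 0.35 FPKM, from 2, 29 and 8 counts. At E16.5 they were 0.18, 0.18 and 0.04 FPKM, from 4, 4 and 1 counts. No cornea came near a pNC sample, and E14.5 replicate 2 was the highest cornea. Against pNC the log2 fold change was -3.19 at E14.5 (SE 0.52, adjusted p = 0.00042) and -5.09 at E16.5 (SE 0.65, adjusted p = 4e-05), and the first of these was -4.53 without E14.5 replicate 2. Between the corneal stages it was -1.91 (SE 0.83, adjusted p = 0.10), and the call depended on 1 sample, with -2.41 (adjusted p = 0.0062) when E14.5 replicate 1 was left out. Without E14.5 replicate 2 it was -0.56.

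*Bmp3* encodes an atypical ligand, reported to counteract other BMPs at the type II receptor. It was the member that was upregulated most. In pNC it had 1.8, 1.17 and 1.51 FPKM. The E14.5 corneas gave 24, 9.1 and 12.2 FPKM, and the E16.5 corneas 35.7, 47.3 and 43.2 FPKM. The stages did not overlap, and E14.5 replicate 1 lay closest to E16.5. The log2 fold change was 3.31 at E14.5 (SE 0.36, adjusted p = 3e-05), 4.95 at E16.5 (SE 0.36, adjusted p = 7.9e-07), and 1.64 from E14.5 to E16.5 (SE 0.29, adjusted p = 0.002). Leaving out E14.5 replicate 1 gave 2.82 against pNC (adjusted p = 4.7e-07) and 2.14 between the corneal stages (adjusted p = 1.3e-06). The summed level of 5 keratocyte markers (*Kera*, *Lum*, *Dcn*, *Col1a1* and *Col5a1*) had the same order of stages, at 104 to 160, 2160 to 5630 and 8740 to 10600 FPKM, with 5628 in E14.5 replicate 1 against 2164 and 3167 in replicates 2 and 3. All 7 epithelial and all 5 keratocyte markers were upregulated at both corneal stages, and their part in the *Bmp3* result was not tested. In these bulk samples a larger share of cells of a type and more RNA per cell cannot be told apart.

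*Bmp7*, needed for eye and kidney development, was the most abundant ligand at E10.5 and E14.5. Its levels were 19.9, 20.7 and 18.7 FPKM in pNC, 33.2, 38.1 and 44.3 FPKM at E14.5, and 22.7, 20.3 and 24.6 FPKM at E16.5. The E14.5 corneas were above all others, and pNC and E16.5 overlapped. The log2 fold change of 0.95 at E14.5 (SE 0.12, adjusted p = 6.9e-05) fell short of the minimum of 1 that a call required, and it was 1.06 (adjusted p = 3e-06) without E14.5 replicate 1. The value at E16.5 was 0.34 against pNC (SE 0.12, adjusted p = 0.023) and -0.61 against E14.5 (SE 0.12, adjusted p = 0.0031). The summed level of 4 corneal endothelial markers was also highest at E14.5, at 265 to 323 FPKM against 11.6 to 20.1 in pNC and 200 to 236 at E16.5, although *Slc4a11* of that list was not (0.963 and 1.78 FPKM at the corneal stages). Of the 7 epithelial markers *Epcam* was highest at E14.5 and the other 6 at E16.5. The part of these cell types in the *Bmp7* level was not tested.

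*Bmp2*, a ligand of the *Bmp4* subgroup important in heart and bone, was scarce throughout. It had 1.24, 1.54 and 1.04 FPKM in pNC, 0.44, 0.7 and 0.56 at E14.5, and 0.67, 0.57 and 0.85 at E16.5, with no cornea above 27 counts. Every pNC sample exceeded every cornea. It was downregulated at E14.5 (log2 fold change -1.17, SE 0.27, adjusted p = 0.0039), a call that limma on log2(FPKM + 1) did not make (-0.53), and the value at E16.5 was -0.72 (SE 0.27, adjusted p = 0.031), short of the fold minimum.

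Of the secreted antagonists, *Grem1*, a cystine-knot protein that binds BMP2, BMP4 and BMP7, was downregulated from a low level. pNC samples held 1.3, 2.64 and 2.23 FPKM (19, 39 and 32 counts). The E14.5 corneas had 0.42, 0.21 and 0.28 FPKM (6, 3 and 4 counts), and at E16.5 replicates 1 and 2 had 0.28 and 0.07 FPKM (4 and 1 counts) while replicate 3 had no listed value. No cornea reached a pNC sample. The log2 fold change was -2.75 at E14.5 (SE 0.52, adjusted p = 0.0012) and -3.91 at E16.5 (SE 0.62, adjusted p = 2e-04), and at 5 counts over all E16.5 samples the second value is imprecise, with -5.44 when E16.5 replicate 1 was left out and -3.35 when replicate 3 was.

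*Chrd*, encoding chordin, which traps BMP2, BMP4 and BMP7 until it is cleaved, was upregulated. Its level was 2.25, 1.6 and 2.47 FPKM in pNC, 3.58, 4.4 and 5.08 at E14.5, and 4.32, 5.03 and 4.49 at E16.5. All corneas were above all pNC samples, and the corneal stages overlapped. The log2 fold change of 1.03 at E14.5 (SE 0.20, adjusted p = 0.0013) was just past the fold minimum and was 0.86 without E10.5 replicate 2 and 0.89 without E14.5 replicate 3, which ends the call. At E16.5 it was 1.28 (SE 0.20, adjusted p = 1.8e-04). *Nog*, encoding noggin, stayed near 2 FPKM with wide spread. Values were 2.67, 1.67 and 1.06 FPKM in pNC, 2.5, 2.25 and 1.87 at E14.5, and 2.87, 2.19 and 1.7 at E16.5, with overlap between all stages. Its log2 fold change was 0.28 (SE 0.33, adjusted p = 0.50) and 0.47 (SE 0.33, adjusted p = 0.23) against pNC.

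Among the cell-autonomous inhibitors, *Bambi*, which lies on chromosome 18 from 3507011 to 3516404, was downregulated at each step. pNC had 10.6, 9.96 and 10.6 FPKM, the E14.5 corneas 2.56, 3.82 and 2.84, and the E16.5 corneas 1.06, 0.91 and 1.37. The 3 stages did not overlap. The log2 fold change was -1.77 at E14.5 (SE 0.16, adjusted p = 7.4e-06), -3.07 at E16.5 (SE 0.18, adjusted p = 1.9e-07) and -1.30 between the corneal stages (SE 0.18, adjusted p = 8.7e-04). *Smad6* had 11, 10.9 and 9.61 FPKM in pNC, 7.84, 9.37 and 9.69 at E14.5, and 7.33, 7.48 and 7.59 at E16.5. The fitted log2 fold change was -0.24 at E14.5 (SE 0.11, adjusted p = 0.089) and -0.34 at E16.5 (SE 0.11, adjusted p = 0.018), and it was not called. *Smad6* is also known from vascular endothelium, whose markers *Pecam1*, *Cdh5* and *Tie1*, 3 of the 4 listed, were downregulated at both corneal stages, and their part in its level was not tested.

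**Figure D2:**
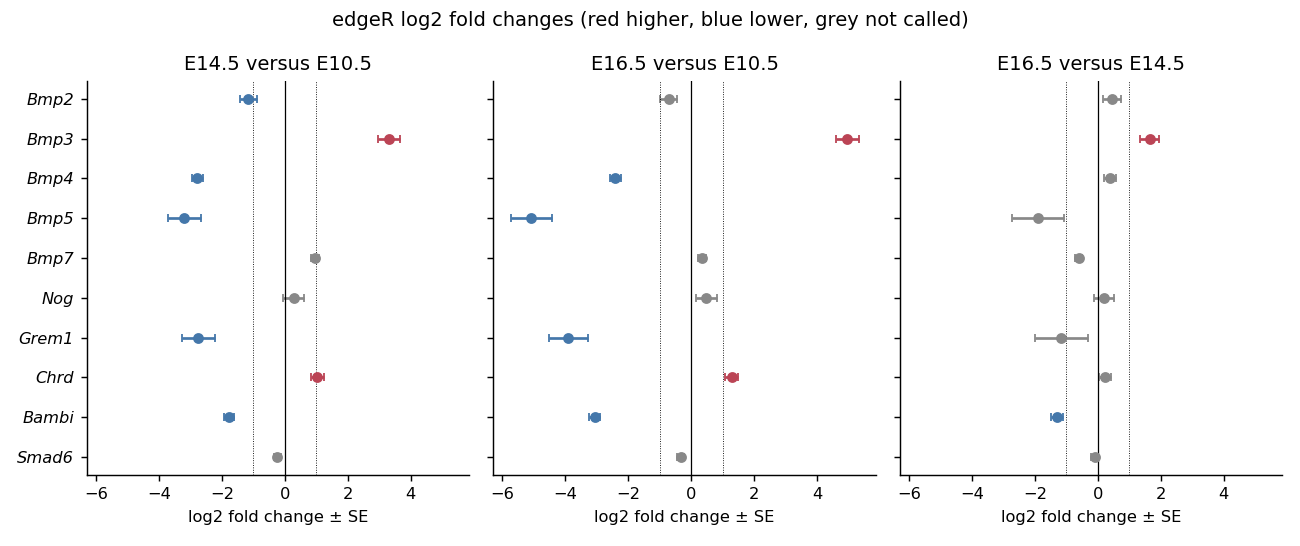
Log2 fold change with SE (horizontal axis, edgeR) of the 10 genes (vertical axis) in the 3 comparisons of stages, with dotted lines at the fold minimum. Red marks genes called higher at the later stage, blue genes called lower and grey genes not called, and *Bmp3* and *Bambi* are the only ones colored in all 3 panels.

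Counted together, 7 members were called at E14.5 against pNC, 2 higher and 5 lower, where 21.6% of the 14771 genes tested were called (13.6% higher and 7.97% lower). At E16.5 against pNC 6 were called, 2 higher and 4 lower, where 34.8% of all genes were (19.4% higher and 15.4% lower). From E14.5 to E16.5, 2 members were called, *Bmp3* higher and *Bambi* lower, where 11.7% of all genes were (6.26% higher and 5.47% lower). By adjusted p alone, with no fold minimum, 8, 9 and 3 members passed in these comparisons, where 56.4%, 69.8% and 35.0% of all genes did. The 10 members all passed the filter on low counts, and their median log2 fold change was -0.70, -0.53 and 0.04 in these comparisons, against 0.01, 0.00 and -0.02 over all genes tested. Samples of both stages did not overlap in FPKM for 8, 8 and 4 members, where this held for 61.0%, 77.2% and 53.2% of all genes. By the NOISeq criterion recomputed from FPKM, 4, 4 and 1 members were called (7.75%, 19.0% and 4.14% of all genes). *Bmp3*, *Bmp4*, *Bmp5* and *Bambi* were those called against pNC by it at each corneal stage, and *Bmp3* between the corneal stages.

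The makeup of ligand transcripts changed from stage to stage. In pNC, *Bmp7* and *Bmp4* made 41.6% to 46.1% and 35.9% to 40.5% of the summed FPKM of the 5 ligands and *Bmp5* 11.3% to 12.2%. At E14.5 the share of *Bmp7* was 55.0%, 73.6% and 74.5% in replicates 1 to 3, that of *Bmp3* 39.7%, 17.6% and 20.5%, and that of *Bmp4* at most 5.02%. *Bmp3* made 56.9% to 67.0% at E16.5 and *Bmp7* 28.8% to 36.2%. The ratio of *Bmp7* to *Bmp4* was 1.03 to 1.26 in pNC, 12.4 to 21.5 at E14.5 and 6.48 to 9.15 at E16.5, with no overlap between stages. The ratio of *Bmp3* to *Bmp7* was 0.0566 to 0.0906, then 0.239 to 0.723, then 1.57 to 2.33.

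On the inhibitor side, *Bambi* and *Smad6* made 38.7% ± 1.83 and 39.1% ± 1.86 (SD, n = 3) of the summed FPKM of the 5 inhibitors in pNC. At E16.5 *Smad6* made 48.0% ± 1.97, *Chrd* 29.6% ± 2.45 and *Bambi* 7.17% ± 1.68. The summed level of the inhibitors was 26.8 ± 0.925 FPKM in pNC, 18.9 ± 1.74 at E14.5 and 15.6 ± 0.369 at E16.5, without overlap of the stages. The secreted antagonists *Nog*, *Grem1* and *Chrd* alone summed to 5.76 to 6.22, 6.50 to 7.23 and 6.19 to 7.47 FPKM by stage. The pNC and E14.5 sums did not overlap, and the E16.5 sums overlapped both. These overlaps, and those of the summed inhibitors, are for FPKM without the TMM scaling described below. That scaling raises E16.5 values relative to the other stages and changes which of the sums overlap. These sums treat a transcript of each gene alike and measure neither protein nor activity.

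**Figure D3:**
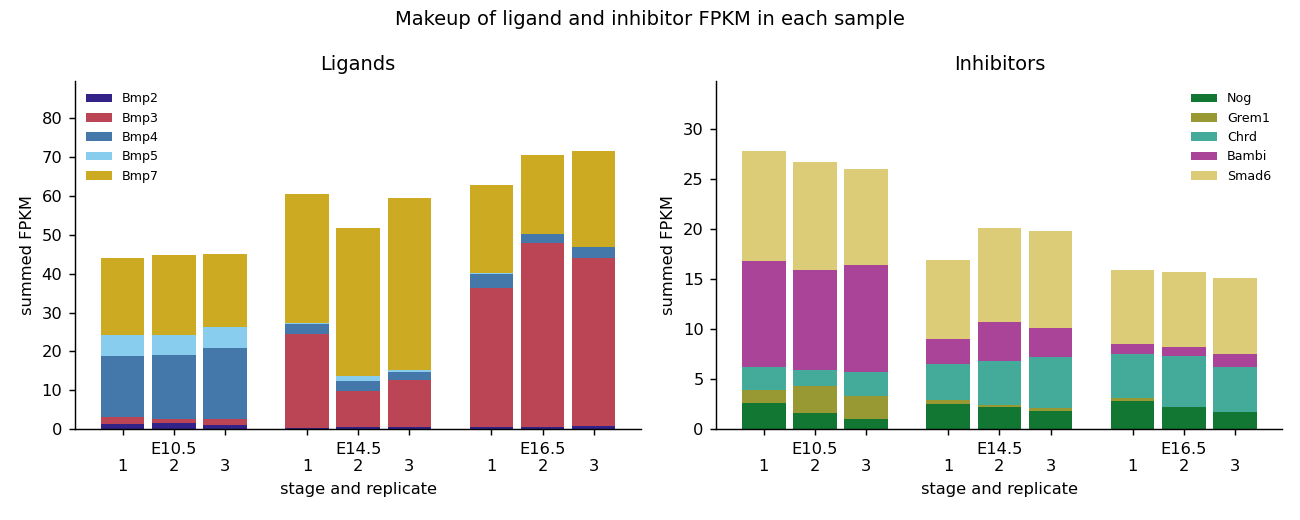
Summed FPKM (vertical axis, linear) of the 5 ligands (left) and the 5 inhibitors (right) in each sample, ordered by stage and replicate (horizontal axis), with a color for each gene. The ligand bars turn from *Bmp7* and *Bmp4* in pNC to mostly *Bmp7* at E14.5 and mostly *Bmp3* at E16.5, and the part taken by *Bambi* shrinks from pNC to E16.5.

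Of the 9 receptors and co-receptors tested, 2 were called at E14.5 and 4 at E16.5, where 21.6% and 34.8% of all genes were. The main type I receptor of BMP2 and BMP4, *Bmpr1a*, had 33.4 ± 2.41 FPKM in pNC, then 38.2 ± 3.81 (E14.5) and 32.2 ± 1.47 (E16.5) in the corneas, with log2 fold changes of 0.18 (adjusted p = 0.11) and 0.10 (adjusted p = 0.36) against pNC. Another type I receptor, *Bmpr1b*, known for limb cartilage, which had 3.9, 4.71 and 3.44 FPKM in pNC and 0.17, 0.2 and 0.3 FPKM at E14.5. It was downregulated at E14.5 (log2 fold change -4.17, SE 0.24, adjusted p = 3.6e-07), and each E16.5 sample held 1 count of it. The type I receptor *Acvr1* was at 9.48 ± 0.982, 14.6 ± 2.86 and 15.5 ± 1.67 FPKM and the endothelial type I receptor *Acvrl1* at 6.94 ± 2.73, 4.72 ± 0.696 and 3.57 ± 0.667 FPKM, neither of them called. The type II receptor *Bmpr2*, with 9.85 ± 0.384, 15.0 ± 1.08 and 12.3 ± 0.41 FPKM, was not called either. Against pNC by edgeR, these fell short of the fold minimum rather than of the adjusted p. *Acvr1* was at 0.60 and 0.84 (adjusted p = 0.0091 and 0.00083) and *Bmpr2* at 0.59 and 0.47 (adjusted p = 0.0001 and 0.00023). *Acvrl1* was at -0.58 and -0.81 and passed the adjusted p at E16.5 only (0.095 and 0.022).

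The activin type II receptors, which also bind BMPs, moved in opposite directions by E16.5. *Acvr2a* was upregulated from 9.86 ± 1.11 to 19.8 ± 1.33 FPKM (log2 fold change 1.15, SE 0.14, adjusted p = 2.2e-05), and *Acvr2b* was downregulated from 15.9 ± 1.59 to 5.8 ± 0.485 FPKM (log2 fold change -1.30, SE 0.13, adjusted p = 5.3e-06). At E14.5 *Acvr2a* had 11.8 to 17.8 FPKM and *Acvr2b* 9.45 to 9.82 FPKM. Of the receptors and co-receptors called, 1 was higher and 1 lower at E14.5, and E16.5 had 2 of each, with medians of 0.18 and 0.10 over those tested. The co-receptor *Rgma*, at 11.3 ± 3.42 FPKM in pNC and 24.3 ± 1.42 and 22.4 ± 0.673 in the corneas, was called higher at both stages (log2 fold change 1.09 and 1.14), and both calls rested on E10.5 replicate 3, without which the values were 0.86 and 0.90. Of the 4 signaling Smads, none was called at E14.5, and *Smad1*, *Smad5* and *Smad4* were at 10.1 to 13.6, 30.3 to 41.9 and 33 to 39.4 FPKM by stage mean. *Smad9*, named after its values were seen, was downregulated at E16.5, from 1.29 to 0.427 FPKM (log2 fold change -1.45, SE 0.25, adjusted p = 0.00036).

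Of the other extracellular antagonists and modulators, 8 of 14 tested were called higher at each corneal stage against pNC and none lower, with medians of 1.5 and 1.32. Of all genes tested, 13.6% and 19.4% were called higher at these stages, and 7.97% and 15.4% lower. *Crim1*, a transmembrane protein that tethers BMPs, was upregulated from 4.02 ± 0.605 to 38.9 ± 10.4 and 45.5 ± 2.54 FPKM (log2 fold change 3.26 and 3.65, SE 0.18 for both, adjusted p = 3.2e-07 and 9.8e-08). *Fst*, encoding follistatin, an activin and BMP binding protein, had 4.66, 2.97 and 2.57 FPKM in pNC, 15.3, 56.5 and 40.4 at E14.5, and 5.58, 8.23 and 6.46 at E16.5. It was upregulated at E14.5 (log2 fold change 3.44, SE 0.43, adjusted p = 8.1e-05) and downregulated again by E16.5 (-2.30, SE 0.40, adjusted p = 0.002), and E14.5 replicate 1 was the lowest of its stage. Its call at E16.5 against pNC (1.14, SE 0.45, adjusted p = 0.044) was lost without E10.5 replicate 2 or 3 or E16.5 replicate 2 or 3 (0.96 to 1.18). *Bmper*, a chordin-like modulator that can promote or inhibit BMP activity, had 1.37, 0.89 and 0.98 FPKM in pNC, 9.76, 2.11 and 5 FPKM at E14.5 and 14.9, 17.9 and 17.8 FPKM at E16.5. Between pNC and E16.5 the log2 fold change was 4.11 (SE 0.46, adjusted p = 1.4e-05), and there E14.5 replicate 1 was the highest of its stage. *Fstl3*, a follistatin relative, was at 1.13 ± 0.095, 4.67 ± 1.02 and 7.38 ± 1.09 FPKM and was called higher at both stages.

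Further ligands were sparse. Of 6 tested, 4 were called higher and 1 lower at either corneal stage. Of all genes tested, 13.6% and 19.4% were called higher at these stages, and 7.97% and 15.4% lower. *Bmp6*, *Gdf7* and *Bmp15*, named after their values were seen, were called higher at both. By stage, mean levels were 0.357, 1.7 and 3.9 FPKM for *Bmp6* and 0.267, 2.89 and 3.33 FPKM for *Gdf7*. *Bmp15* stayed at 0.45 FPKM or less by stage mean. *Gdf10*, also known as *Bmp3b* and the closest relative of *Bmp3*, had 2.99 ± 1.14 FPKM in pNC, 6.53 ± 2.31 at E14.5 (log2 fold change 1.11, SE 0.32, adjusted p = 0.013) and 2.72 ± 0.506 at E16.5, and its call at E14.5 was lost without E10.5 replicate 3 (0.89) or E14.5 replicate 2 or 3 (0.96). The ligand called lower, named after its values were seen, was *Gdf6*, known for joint and eye development, with 132, 93 and 142 counts in pNC, 0, 0 and 2 at E14.5 and 1, 0 and 0 at E16.5. Of the proteases that cleave chordin, *Bmp1* was at 42.2 ± 3.07 FPKM in pNC, 75.6 ± 5.01 at E14.5 and 91.4 ± 4.81 by E16.5, and was upregulated at E16.5 (log2 fold change 1.30, SE 0.09, adjusted p = 6.3e-07). *Tll1*, also named after its values were seen, was downregulated at both stages, from 1.32 to 0.447 and 0.307 FPKM. Among 6 other intracellular inhibitors none was called at E14.5, and *Smad7* was downregulated at E16.5, from 7.04 ± 0.768 to 2.96 ± 0.186 FPKM (log2 fold change -1.10, SE 0.15, adjusted p = 6.1e-05).

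Genes known to respond to BMP signals were called lower or not called against pNC, 4 of 9 lower at E14.5 and 5 of 9 at E16.5 with none higher, and with medians of -1.04 and -1.25. Of all genes tested, 7.97% and 15.4% were called lower in these comparisons, and 13.6% and 19.4% higher. *Msx1*, a homeobox gene of craniofacial mesenchyme, had 57.2, 50.1 and 69.1 FPKM in pNC, 4.56, 8.32 and 10.53 at E14.5, and 0.71, 1.29 and 0.76 at E16.5. The stages did not overlap, and the log2 fold change was -2.92 (SE 0.26, adjusted p = 6.7e-06) and -5.84 (SE 0.34, adjusted p = 2e-07). Its relative *Msx2* was downregulated at E14.5, from 17.3 ± 2.37 to 7.01 ± 0.211 FPKM (log2 fold change -1.32, SE 0.12, adjusted p = 1.1e-05), and had 8.93 ± 0.734 FPKM at E16.5, where -0.80 was short of the fold minimum.

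The Id genes, which encode inhibitors of basic helix-loop-helix factors and are direct BMP targets, differed among themselves. *Id1* had 67.9 ± 3.05, 66.4 ± 21.5 and 50.2 ± 6.79 FPKM, with log2 fold changes of -0.04 (adjusted p = 0.88) and -0.29 (adjusted p = 0.21) against pNC. *Id2* was downregulated at both stages, from 119 ± 6.98 to 56.5 ± 18.3 and 43.3 ± 2.14 FPKM (log2 fold change -1.09, adjusted p = 0.00085, and -1.32, adjusted p = 0.00014). *Id3* had 244, 226 and 205 FPKM in pNC, 74.5, 146 and 162 at E14.5 and 43.3, 49.3 and 51.5 at E16.5, and was downregulated by E16.5 (log2 fold change -2.08, SE 0.24, adjusted p = 1.9e-05). For *Id2* and *Id3*, E14.5 replicate 1 was the lowest of its stage, at 35.4 FPKM for *Id2*, and without it the *Id2* value of -0.84 was short of the fold minimum. *Id4* had 4.62 ± 2.0, 3.66 ± 1.02 and 7.07 ± 1.76 FPKM and was called higher from E14.5 to E16.5 only (log2 fold change 1.11, SE 0.33, adjusted p = 0.025), a call lost without E14.5 replicate 2 or 3 or E16.5 replicate 1 or 2 (0.91 to 1.13).

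*Atoh8* and *Hey1*, also known from endothelium, were downregulated by E16.5, from 7.48 ± 0.848 to 2.84 ± 0.37 FPKM and from 9.82 ± 0.97 to 0.903 ± 0.357 FPKM (log2 fold change -1.25, adjusted p = 3.9e-05, and -3.28, adjusted p = 4.3e-06). *Atoh8* was already downregulated at E14.5, at 2.53 ± 0.121 FPKM (log2 fold change -1.58, adjusted p = 2e-05). Its value between the corneal stages was 0.33 (adjusted p = 0.16). *Hey1* had 5.31 ± 1.68 FPKM at E14.5, where -0.9 (adjusted p = 0.011) was short of the fold minimum. *Cdh5*, a defining vascular marker, had 20.3 to 38.8 FPKM in pNC, 8.23 to 16.7 at E14.5 and 0.17 to 1.85 by E16.5, whereas *Kdr* of the same list was not called. The part of vessels in the changes of *Atoh8* and *Hey1* was not tested. *Dlx5* was at 1.32 ± 0.504, 0.667 ± 0.298 and 1.30 ± 0.18 FPKM and was not called. From E14.5 to E16.5, *Id3*, *Msx1* and *Hey1* were called lower.

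**Figure D4:**
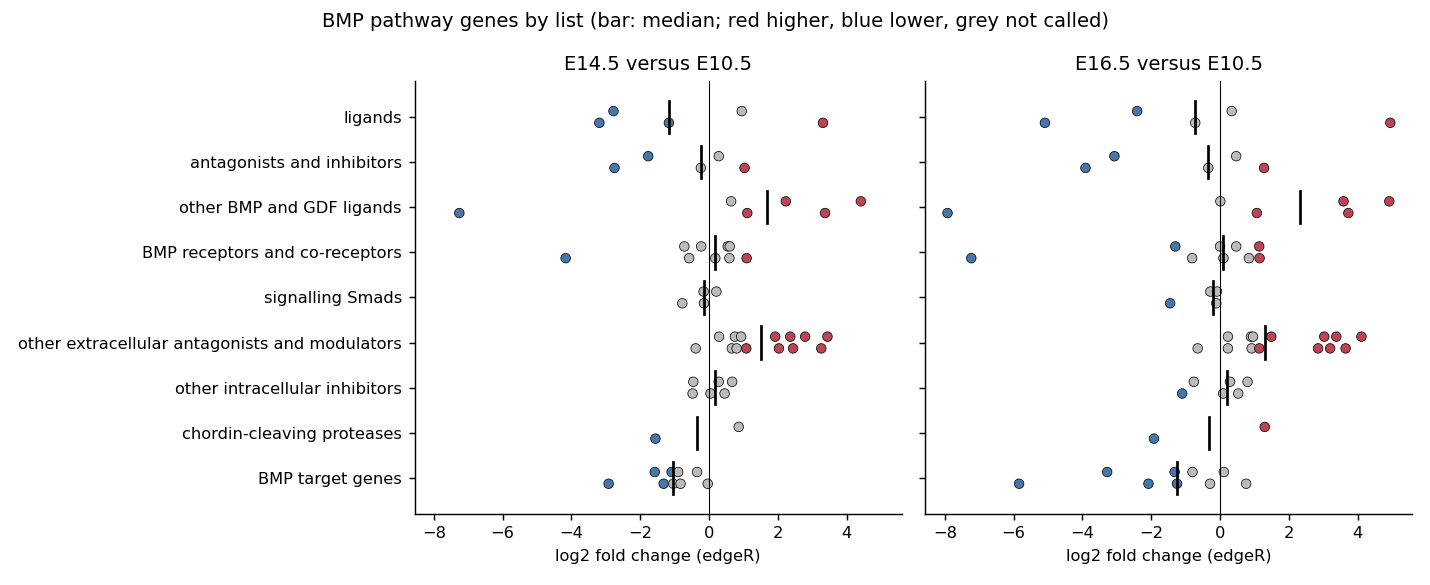
Log2 fold change (horizontal axis, edgeR) of every tested member and pathway gene, grouped by list (vertical axis), at E14.5 (left) and E16.5 (right) against the same pNC samples, with a black bar for the median of each list. Points are red for genes called higher, blue for genes called lower and grey for genes not called. Other extracellular antagonists lie mostly to the right of 0 (medians 1.5 and 1.32) and BMP target genes mostly to the left (medians -1.04 and -1.25).

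Likeness of pattern was measured over the 9 samples as the root mean square difference of log2(FPKM + 1), each gene centered on its own mean, against 10941 other expressed genes. Nearest to *Bmp4* was *Sox9*, a transcription factor gene of crest and cartilage, with a difference of 0.123 and mean levels of 13.6, 2.18 and 2.03 FPKM, followed by *Pdlim3* and *Eno3*. *Bmp3* was most like *Ptgs2*, encoding cyclooxygenase 2, at a difference of 0.149 and mean levels of 0.09, 6.94 and 17.5 FPKM, then *Cpz* and *Ntrk2*. *Bmp5* was nearest to *Zbtb46* (0.158), *Gfpt2* and the epithelial to mesenchymal transition gene *Snai1* (0.213), the last of which stood at 28.6, 6.63 and 4.45 FPKM. *Bambi* was most like *Dut* (0.098), an enzyme of nucleotide metabolism used in DNA replication, *Rps6ka6* and *Sms*. *Bmp7* was nearest to *Adarb1* (0.1), the tight junction gene *Tjp1* (0.11) and *Exoc4*, all of them highest at E14.5. *Smad6* was nearest to *Gle1* (0.0338), which had mean levels of 23.5, 20.6 and 16.6 FPKM. These values describe the 9 samples, which share stage and makeup, and carry no test.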

How the data were processed

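RNA-Seq values were analyzed for 9 samples of mouse pNC and cornea, grouped by stage and numbered by replicate from the sample labels. Per the study's methods and the submitters' processing notes, the authors filtered reads, mapped them with Bowtie2 to reference genes and with HISAT to GRCm38, and quantified genes with RSEM, whose versions are not given in the sources used here. The deposited expected count of a gene is an estimate and is not normalized. The deposited FPKM was made by the authors by scaling to transcript length, which they also deposited, and to the mapped fragments of the sample. Because FPKM is relative to the sample total, highly abundant transcripts of one stage lower the FPKM of other genes. Genes not listed for a sample counted as 0. Identifiers were matched to RefSeq symbols for 19312 of 19369 genes. No column of sample values was left unused.

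Expected counts were rounded to whole numbers, filtered with filterByExpr by stage, scaled by TMM (factors 0.9175 to 0.94 at E16.5 and 1.014 to 1.058 at the other stages) and fitted with edgeR 4.0.16 (quasi-likelihood test, R 4.3.3) in 1 model of stage over all 9 samples. A call required a p, adjusted by Benjamini-Hochberg over 14771 genes, of less than 0.05 and a log2 fold change of 1 or more in either direction. With library totals in place of TMM the median of all genes shifted to -0.15 from pNC to E16.5 and to -0.19 from E14.5 to E16.5. NOISeq, the study's method, was recomputed from FPKM with zeros set to 0.01 and calls at a probability of at least 0.8 with a log2 ratio of 1 or more in either direction. Alternatives were DESeq2 1.42.0, limma 3.58.1 on log2(FPKM + 1) or log2(FPKM + 0.1), other filters, scalings and sample sets, a replicate block, and each sample left out in turn. Scripts were tested on simulated data. Replicates differed by more than counting error (chi-square per degree of freedom 2.93 to 26.3), so each counted as 1 sample.

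The genes, and the pathway and marker lists, were chosen with earlier results of these data known. Named in the text are all members, the receptors, the signaling Smads by range, the target genes, from each other list up to 4 called genes with the largest change among those whose mean FPKM reached 5 at some stage, and the 3 genes most alike to each expressed member, except that some of those for *Smad6* are not reported here. Promoter sequences and gene positions come from RefSeq on GRCm38.p6 and gene overlaps from GENCODE M21.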

Additional observations from a re-analysis of the deposited data

How the results depend on the processing

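Of 478 member fold changes under alternatives, 453 kept their direction and their side of the threshold, 16 lost a call or significance, 8 gained one and 1 reversed. Among these alternatives, adjusted p alone kept the fold changes of the main fit, so there a call could only be gained. The value that reversed was that of *Nog* from E14.5 to E16.5. It was 0.19 with all samples and -0.01 to 0.36 with single samples left out, the lowest without E16.5 replicate 1. At E14.5 against pNC, NOISeq called 4 members in place of 7, and pathway genes numbered 13 by limma on log2(FPKM + 1) with or without a filter, 35 by adjusted p alone and 9 by NOISeq in place of 20. At E16.5 against pNC, NOISeq called 15 pathway genes in place of 26. Between the corneal stages, limma on log2(FPKM + 1), filtered or not, and NOISeq each called 1 member in place of 2 and 5 pathway genes in place of 10, adjusted p alone called 19, and library totals in place of TMM gave 2 pathway genes higher and 6 lower in place of 4 and 6. Members expressed at a mean FPKM of at least 1 in place of 5 numbered 10, 7 and 7 at the 3 stages. With single samples left out, 6 to 8, 6 to 6 and 2 to 3 members and 20 to 23, 24 to 28 and 7 to 10 pathway genes were called in the 3 comparisons, and 5 to 5, 3 to 3 and 3 to 3 members were expressed. Sample numbers showed no pairing (correlation of deviations -0.225 to 0.25 over 9 pairs with the same number and -0.207 to 0.188 over 18 others, with 0 samples closest to their own number in both of the other stages), and with the replicate block 7, 6 and 2 members and 20, 26 and 10 pathway genes were called. *Chrd* lost its call at both stages by limma on log2(FPKM + 1), at 0.79 and 0.86, and by NOISeq, as did *Bmp2* at E14.5 (-0.53 by limma) and *Bambi* between the corneal stages (-0.94 by limma), and NOISeq did not call *Grem1*. By DESeq2 *Bmp5* was called lower from E14.5 to E16.5 (-1.92, adjusted p = 0.038). *Bmp5* and *Grem1* gave no value in a fit of the corneal stages alone, where their counts did not pass the filter. The cause of these differences was not tested. Depth limits *Bmp2*, *Grem1* and *Nog* in every sample and *Bmp5* in the cornea, where the values rest on 50 counts or fewer per sample. *Bmp4* in the cornea and *Bmp3* in pNC rest on 61.1 counts or fewer.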
